A study of Arabidopsis thaliana with 6 samples.

Results

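The genes described here are 10 regulators of the zygote and the early embryo of *Arabidopsis thaliana*, out of 32678 genes listed for young seeds. They were chosen by name and locus: the peptide genes *ESF1.1* (AT1G10747), *ESF1.2* (AT1G10745) and *ESF1.3* (AT1G10717), the kinase genes *SSP* (AT2G17090) and *YDA* (AT1G63700), and the transcription factor genes *WRKY2* (AT5G56270), *RKD4* (AT5G53040), *WOX2* (AT5G59340), *WOX8* (AT5G45980) and *WOX9* (AT2G33880). All 10 were in the table, and each had at least 1 count in 1 of the genotypes. Their levels were compared between *agl62* seeds and wild-type (WT) seeds, with 3 biological replicates per genotype and 6 libraries in all. *agl62* lacks AGL62, a MADS-box protein of type I that acts in the endosperm. The labels give the mutant genotype as *agl62*/-, and the methods of the study describe rare homozygous plants whose seed set is small, so the mutant seeds came from a mother that itself lacked the gene and are those of the plants that survived. Another text of the study writes *agl62*/+ for these seeds. The methods describe emasculation and pollination by hand for the *agl62* plants and do not name the pollen parent. The labels give 30 hr after pollination for the seeds of both genotypes. The strain of the WT plants of these libraries is not given in the sources used here.

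In *Arabidopsis* the zygote elongates and divides into a small apical cell, which forms most of the embryo, and a large basal cell, which forms the suspensor. A mitogen-activated protein (MAP) kinase cascade headed by YDA promotes the elongation and the basal fate. It is activated in the zygote by SSP, a membrane-anchored kinase-like protein whose transcript is made in the sperm and delivered by the pollen, and by the ESF1 peptides, small secreted proteins rich in cysteine that come from the central cell and the young endosperm. WRKY2 activates *WOX8* in the zygote together with HDG11 and HDG12, and RKD4 is an RWP-RK factor needed for the early zygotic program. WOX2 marks the apical lineage, and WOX8 and WOX9 mark the basal one.

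The deposited values are the authors' means of size-factor-normalized counts, 1 per gene and genotype. No value of a single library is in the table, so the spread between replicates is unknown, no test was possible, and the means do not show whether 1 library carries a value. Each interval below is a 95% interval for counting error only, and it was built from the value of a single count in each library. In the *agl62* libraries 1 count added between 0.256 and 0.315 to a mean, and in the WT libraries between 0.242 and 0.731, since 1 WT library was shallow (relative depth of 0.455 against 1.02 and 1.37 for the others). The means summed to 58421347 in *agl62* and to 60412799 in WT, and the median log2 ratio of *agl62* over WT was 0.01 over the 19898 genes whose 2 means averaged at least 10. *AGL62* itself had a mean of 1.81 in *agl62* and of 410 in WT, a log2 ratio of -7.82.

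The ESF1 genes lie within a short stretch of chromosome 1, all on the plus strand. Their coding sequences are shown because the levels of *ESF1.2* and *ESF1.3* differed in opposite directions although the genes are relatives. The sequences are those of RefSeq, build TAIR10.1, written 5′ to 3′ and joined over 2 coding exons each, with the codons for cysteine, TGT and TGC, in capitals. The coding part of *ESF1.1* spans chr1:3574312-3574636, plus strand, that of *ESF1.2* chr1:3572710-3573066, plus strand, and that of *ESF1.3* chr1:3562180-3562554, plus strand.
ESF1.1: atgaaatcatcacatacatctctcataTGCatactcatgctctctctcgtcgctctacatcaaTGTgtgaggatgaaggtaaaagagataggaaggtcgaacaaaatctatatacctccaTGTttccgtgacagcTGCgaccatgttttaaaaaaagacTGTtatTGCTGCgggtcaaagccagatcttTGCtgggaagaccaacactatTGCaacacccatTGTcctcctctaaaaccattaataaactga
ESF1.2: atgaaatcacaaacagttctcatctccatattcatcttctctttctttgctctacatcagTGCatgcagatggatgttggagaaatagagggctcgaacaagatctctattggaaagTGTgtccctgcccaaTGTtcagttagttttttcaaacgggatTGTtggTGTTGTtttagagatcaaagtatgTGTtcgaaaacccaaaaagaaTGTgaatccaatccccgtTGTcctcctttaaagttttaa
ESF1.3: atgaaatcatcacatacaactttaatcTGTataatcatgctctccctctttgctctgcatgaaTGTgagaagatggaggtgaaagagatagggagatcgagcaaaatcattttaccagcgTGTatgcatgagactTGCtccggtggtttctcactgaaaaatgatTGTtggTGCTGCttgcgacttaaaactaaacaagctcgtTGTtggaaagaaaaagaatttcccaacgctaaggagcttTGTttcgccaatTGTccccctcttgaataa

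They hold 10 cysteine codons of 83 in *ESF1.1*, 9 of 82 in *ESF1.2* and 10 of 90 in *ESF1.3*. *ESF1.1* and *ESF1.3* were the most alike, with 75.8% of 240 aligned bases identical. *ESF1.2* shared 67.7% of 235 aligned bases with *ESF1.1* and 69.0% of 242 with *ESF1.3*. The longest run of identical bases between any pair was 18, between *ESF1.1* and *ESF1.3*. No stretch of 100 bases of any of the 10 genes had an exact copy elsewhere in the genome. The best-scoring other alignment of *ESF1.2* covered 63 bases at 81.0% identity. That of *ESF1.3* covered 346 bases at 69.4% identity, in AT1G10715, a neighbour of *ESF1.3* that was not in the table and so has no level.

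*ESF1.2*, the most abundant of the 3 peptide genes, was lower in *agl62* seeds. Its mean was 35.7 normalized counts in *agl62* (29.7 to 42.6), against 234 in WT (214.7 to 254.6). These intervals lie far apart, and the mutant level was 15.3% of the WT level. The log2 ratio was -2.71 (-3.01 to -2.43), a 6.56-fold difference. The *agl62* mean stands for 113 to 139 counts over 3 libraries and the WT mean for 320 to 967, so both were well measured as far as counting goes. Of the 1319 genes with an average between 100 and 200, where *ESF1.2* lies, 3.87% were at least 6-fold lower in *agl62*.

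*ESF1.3* had the opposite difference, from a far lower level in WT. Its mean was 21.7 normalized counts in *agl62* (17.1 to 27.2) and 3.49 in WT (1.51 to 6.86). The log2 ratio was 2.64 (1.59 to 3.89), and *ESF1.3* was thus 6.22-fold higher in *agl62*, with 69 to 85 counts behind the *agl62* mean and only 5 to 14 behind the WT mean. Of the 952 genes with an average between 10 and 20, where *ESF1.3* lies, 4.73% were at least 6-fold higher. The 3rd gene, *ESF1.1*, was at the floor in both genotypes. It was listed at 0 in *agl62*, which allows a mean of up to 0.862 by the limit of 3 counts (the 2-sided interval used for the other genes reaches 1.06), and at 0.242 in WT, which is 1 count in the deepest WT library. No fold is given for it. Its 3′ end shares 24 bases, or 4.62% of its span, with AT1G10750 on the other strand, which had means of 266 in *agl62* and 263 in WT. Whether reads were counted by strand is not given in the sources used here.

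**Figure D1:**
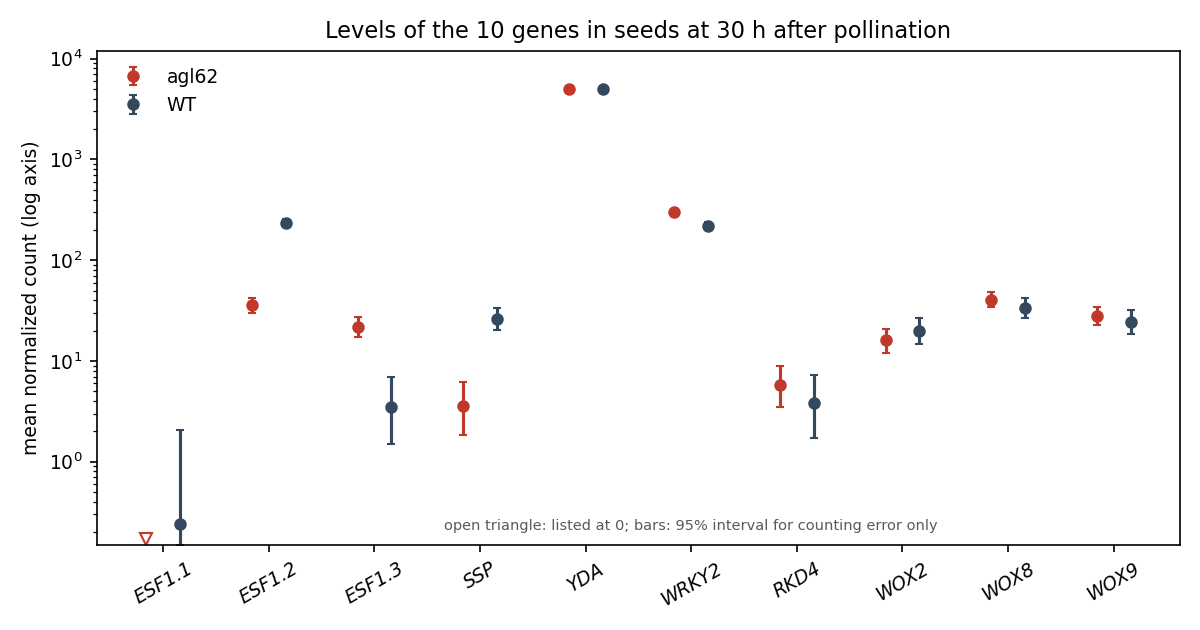
Mean normalized count of each of the 10 genes (log axis) in *agl62* seeds (red) and WT seeds (dark blue), with bars for the 95% counting interval and an open triangle for a gene listed at 0. *ESF1.2* and *SSP* lie lower in *agl62* (35.7 against 234 in WT for *ESF1.2*, and 3.54 against 26.3 in WT for *SSP*), *ESF1.3* lies higher in *agl62* (21.7 against 3.49 in WT), and the pairs of the *WOX* genes, *YDA* and *RKD4* have overlapping bars.

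Around the ESF1 genes, all but 1 of the measured neighbours lay inside 2-fold, where 5.7% of all genes past the filter lay outside. *ESF1.3* (chr1:3562180-3562554) and *ESF1.2* (chr1:3572674-3573173) are 10119 bases apart, and *ESF1.1* (chr1:3574312-3574830) begins 1138 bases after the end of *ESF1.2*. Of the 15 other genes annotated within 20 kb of one of them, 12 were in the table, and 11 of these had log2 ratios between -0.32 and 0.56. The exception was *PGP10* (AT1G10680), an ABCB transporter gene on the minus strand whose start lies 28.8 kb before that of *ESF1.2*, and which is among the endosperm markers below. Its mean was 44.2 in *agl62*, against 587 in WT, a log2 ratio of -3.73 (-3.98 to -3.49). The genes on the plus strand just after *ESF1.3*, and between it and *ESF1.2*, were among the 11.

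**Figure D2:**
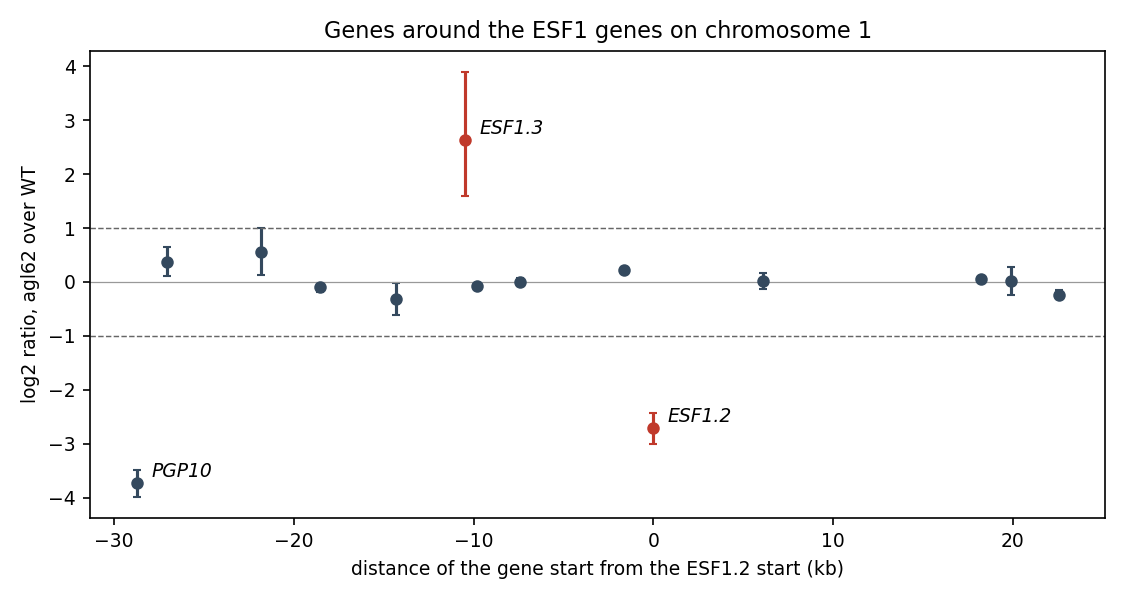
Log2 ratio of *agl62* over WT (vertical axis) for the genes of the table within 20 kb of an ESF1 gene, by the distance in kb of each gene's start, on its own strand, from that of *ESF1.2*, with 95% counting intervals and dashed lines at 2-fold. *ESF1.2* and *PGP10* lie below the lines at -2.71 and -3.73, *ESF1.3* lies above at 2.64, and the 11 other genes lie between -0.32 and 0.56.

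*SSP*, the paternal activator of the cascade, was lower in *agl62* seeds. Its mean was 3.54 normalized counts in *agl62* (1.85 to 6.14) and 26.3 in WT (20.1 to 33.8). The intervals did not overlap, and the mutant level was 13.5% of that of WT. The log2 ratio was -2.89 (-3.91 to -2.00), a 7.43-fold difference that rests on 11 to 14 counts in *agl62* and 36 to 109 in WT. This interval holds all of that of *ESF1.2*, and with a pseudocount of 1 or 10 *SSP* had the less negative ratio of the pair (-2.59 or -1.42, against -2.68 or -2.42 for *ESF1.2*). Among the 952 genes with an average between 10 and 20, 4.83% were at least 6-fold lower. *SSP* has 9 distinct annotated exons. Exon numbers here and below pool all annotated transcripts of a gene, so a single transcript can have fewer. *SSP* lies at chr2:7434919-7437314 on the minus strand, with no annotated gene across it. Its best-scoring other alignment, in AT2G17170, covered 621 bases at 70.4% identity.

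The transcript of *SSP* is known from sperm cells and pollen, so the markers of those cells are given beside it. Of the 12 pollen and sperm markers, 8 had an average of at least 10, and 0 of these were 2-fold apart, beside 5.7% of all genes. So few genes could give a count of 0 at that share. The median log2 ratio of the 8 was 0.01, with a range from -0.64 to 0.94. The means of all 12 summed to 2441 in *agl62* and to 2605 in WT. The most abundant, *SKS13*, a pollen oxidase-like gene, had means of 1050 in *agl62* and 1210 in WT. *HAP2*, which encodes the sperm fusogen, had 35.8 in *agl62* and 23.1 in WT. *MGH3*, a histone gene of sperm cells, had 2.02 in *agl62* and 2.11 in WT, and *GEX2*, another sperm gene, was listed at 0 in both. The lowest ratio was that of *PPME1*, a pectin methylesterase gene of pollen that lay just under the filter, with 5.19 in *agl62* and 14.7 in WT. *DUO1*, a MYB gene of the male germline, had 1.06 in *agl62* and 0 in WT. Of the sperm and male germline genes in the list, only *HAP2* passed the filter, so the median of 0.01 rests mostly on other pollen genes. *HAP2*, *MGH3*, *GEX2*, *DUO1* and *PPME1* are named after their values were seen. The part of these markers in the level of *SSP* was not tested.

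*YDA*, the MAP kinase kinase kinase that SSP activates, was by far the most abundant of the 10 genes per length, and its counting intervals overlapped. Its mean was 4990 in *agl62* (4916 to 5065), against 4960 in WT (4870 to 5052). The log2 ratio was 0.01, and its interval (-0.03 to 0.04) was the narrowest among the 10 genes. *YDA* has 14 distinct exons and lies at chr1:23624627-23630073 on the minus strand. *YDA* acts in many tissues besides the zygote, and in whole seeds its transcript cannot be assigned to a cell type.

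The rest of the *YDA* pathway was taken as 11 genes, from the ERECTA family of receptor kinases (*ER*, *ERL1*, *ERL2*) and the BSK kinases, which are relatives of SSP, to the MAP kinases and the HDG factors. All 11 passed the filter. Their median log2 ratio was -0.03, with 1 gene at least 2-fold higher in *agl62* and 0 lower, beside 2.64% and 3.06% of all genes. That gene was *HDG11* (AT1G73360), a maternal HD-ZIP factor that activates *WOX8* with WRKY2. Its mean was 70.1 in *agl62* and 29.5 in WT, a log2 ratio of 1.25 (0.86 to 1.66), whereas its relative *HDG12* had 302 in *agl62* and 312 in WT. *MPK3* and *MPK6* encode the last kinases of the cascade. *MPK3* had a mean of 7070 in *agl62* and 4400 in WT, a log2 ratio of 0.68, and *MPK6* had 4490 in *agl62* and 4680 in WT. These genes other than *HDG11* are named after their values were seen, and HDG genes are also known from the epidermis and the seed coat.

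*WRKY2* was slightly higher in *agl62*, and *RKD4* was too low to be compared. The mean of *WRKY2* was 299 in *agl62* (281.1 to 317.7) and 217 in WT (198.4 to 236.9), intervals that did not overlap. The log2 ratio was 0.46 (0.31 to 0.62), a 1.38-fold difference, below the 2-fold used here as a threshold. *WRKY2* lies at chr5:22779614-22783426 on the plus strand with 5 distinct exons. It shares 43 bases, or 1.13% of its span, with *CSN6A* (AT5G56280) on the other strand, a gene with means of 3220 in *agl62* and 3830 in WT, and the part of its counts that came from the overlap is not known.

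*RKD4* (chr5:21506967-21507948, minus strand, 3 distinct exons) had a mean of 5.73 in *agl62* (3.50 to 8.86) and 3.82 in WT (1.73 to 7.30). Between 18 and 22 counts stood behind the *agl62* mean and between 5 and 16 behind the WT mean. The log2 ratio of 0.59 had an interval from -0.62 to 1.92, so no difference was detectable at this depth. Of the 4 other *RKD* genes, *RKD3* and *RKD5* passed the filter, with log2 ratios of 0.05 and -0.03. *RKD2*, an egg cell gene, was under the filter with 5.14 in *agl62* and 1.3 in WT, and *RKD1* had 1 count in each genotype. These relatives are named after their values were seen.

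The 3 *WOX* genes of the apical and basal lineages differed little between the genotypes. *WOX2*, the apical gene, had a mean of 16.0 in *agl62* (12.1 to 20.8) and 20 in WT (14.7 to 26.7), a log2 ratio of -0.32 (-0.91 to 0.27). *WOX8*, the target of WRKY2 in the zygote, had 40.6 in *agl62* (34.2 to 47.9) and 33.6 in WT (26.5 to 42.0), a log2 ratio of 0.27 (-0.14 to 0.69). *WOX9*, which acts with *WOX8* in the basal lineage, had 28.0 in *agl62* (22.7 to 34.1) and 24.4 in WT (18.5 to 31.7), a log2 ratio of 0.20 (-0.29 to 0.70). All 3 intervals hold 0 and lie inside 2-fold, as far as counting error goes, and the spread between the replicates, which could widen them, is not known. *WOX2* lies at chr5:23933338-23935050 (minus strand, 2 distinct exons), *WOX8* at chr5:18648886-18650836 (plus strand, 4 distinct exons) and *WOX9* at chr2:14341355-14343796 (minus strand, 6 distinct exons).

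Among the 12 other *WOX* genes, which act mostly in meristems and leaves, 6 were listed at 0 in both genotypes and 1 passed the filter. That gene, *WOX13*, is broadly expressed, with 2700 in *agl62* and 2610 in WT, and is named after its value was seen. *WOX2*, *WOX8* and *WOX9* were thus 3 of the 4 *WOX* genes with an average of at least 10. The regulators of later embryo patterning held 13 genes, such as the auxin response factor gene *MP*, the epidermal genes *ATML1* and *PDF2*, and the root genes *SHR* and *SCR*, which are named as examples of the list. Of the 9 that passed the filter, 0 were 2-fold apart, beside 5.7% of all genes, and their log2 ratios lay between -0.21 and 0.11. The 4 pathway lists came to 40 genes, of which 23 passed the filter, with a median log2 ratio of -0.03.

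Taken over the 10 genes, 8 passed the filter (all but *RKD4* and *ESF1.1*), and 3 of the 8 were past 2-fold: *ESF1.3* higher, *SSP* and *ESF1.2* lower. Of these 3, *ESF1.3* and *SSP* reached the filter only through the genotype where each was higher. Their place in the count is thus not independent of their difference. The median of the 8 was 0.10. Of all 19898 genes, 5.7% were past 2-fold, but low genes pass more often. *SSP*, *ESF1.3* and *WOX2* had averages of 10 to 20, and 2 of these 3 were past 2-fold, beside 32.0% of the 952 genes of that range. Counting intervals left out 0 for 4 of the 9 genes with a ratio, 2 higher in *agl62* (*ESF1.3* and *WRKY2*) and 2 lower, and held 0 for the other 5. The share of all genes whose interval leaves out 0 was not computed, so this count is no result about the 10 genes. For abundant genes such intervals leave out 0 at small ratios, as for *MP* (0.111, 0.093 to 0.129).

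**Figure D3:**
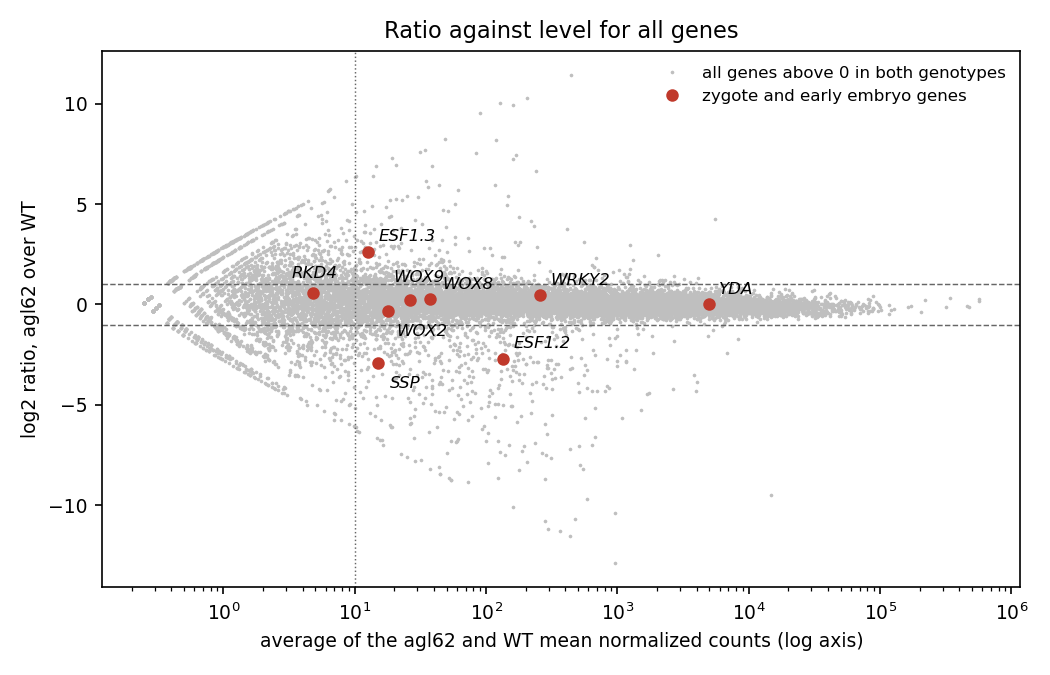
Log2 ratio of *agl62* over WT against the average of the 2 means (log axis) for all genes above 0 in both genotypes (grey) and for 9 of the 10 genes (red, named; *ESF1.1* is at 0 in *agl62*). The dotted line marks the filter of 10 and the dashed lines mark 2-fold. *ESF1.3* (2.64), *SSP* (-2.89) and *ESF1.2* (-2.71) lie outside the dashed lines, and the grey cloud is widest at the low averages of *ESF1.3* and *SSP*.

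Between genes, levels were compared as mean normalized counts per kb of annotated exon. In *agl62* the order was *YDA* (1326 per kb), *WRKY2* (98.5), *ESF1.2* (91.1), *ESF1.3* (79.5), *WOX8* (35.3), *WOX9* (13.7), *WOX2* (12.5), *RKD4* (7.43), *SSP* (2.24) and *ESF1.1* (0). The counting intervals of *WRKY2*, *ESF1.2* and *ESF1.3* overlapped there, as did those of *WOX9*, *WOX2* and *RKD4*, and those of *SSP* and *ESF1.1*. These orders and overlaps depend on the annotated lengths, since the exons of *ESF1.3* and *RKD4* are annotated as coding sequence only. Per kb of coding sequence, *WRKY2* had 144.9 in *agl62*, *ESF1.2* 143.4 and *ESF1.3* 79.5. In WT the order was *YDA* (1318 per kb), *ESF1.2* (597), *WRKY2* (71.5), *WOX8* (29.2), *SSP* (16.6), *WOX2* (15.7), *ESF1.3* (12.8), *WOX9* (11.9), *RKD4* (4.96) and *ESF1.1* (0.543). The intervals of *SSP*, *WOX2*, *ESF1.3* and *WOX9* overlapped in WT. That of *ESF1.3* also overlapped those of *WOX8* and *RKD4*, and that of *RKD4* overlapped those of *WOX9* and *ESF1.1*, whereas *YDA*, *ESF1.2* and *WRKY2* stood apart. *ESF1.2* was thus 2nd in WT at the 60.1st percentile of all genes with reads, and at the 36.1st percentile in *agl62*. *SSP* was at the 14.0th percentile in *agl62* and the 24.8th in WT. In WT only *YDA* and *ESF1.2* were above the median gene, and in *agl62* only *YDA* was.

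The samples were whole seeds, so levels in the zygote, the endosperm and the seed coat are pooled in each value, and fewer cells of a type cannot be told apart from less RNA per cell. ESF1 transcripts are known from the central cell and endosperm, so endosperm markers are given beside them. Of 10 such markers, 9 passed the filter, and 8 were at least 2-fold lower in *agl62*, beside 3.06% of all genes. The median log2 ratio of the 9 was -2.74. The means of all 10 summed to 722.5 in *agl62* and to 2659 in WT, and none was listed at 0. The 8 include *AGL62*, the mutated gene, and *PGP10*, which the study picked from these libraries, so their direction is not independent. Without both, 6 of 7 were at least 2-fold lower, the median was -1.61 and the sums of the other 8 markers were 676.5 in *agl62* and 1662 in WT. The most abundant, *FWA*, a homeodomain gene expressed from the maternal allele, had 358 in *agl62* and 720 in WT. The type I MADS-box genes *PHE1* (98.6 in *agl62*, 302 in WT) and *AGL36* (11.1 in *agl62*, 33.4 in WT) were lower. So were the Polycomb gene *MEA* (49.8 in *agl62*, 333 in WT), the auxin synthesis gene *YUC10* (4.60 in *agl62*, 32.9 in WT) and *MINI3*, a WRKY gene of endosperm growth (7.46 in *agl62*, 149 in WT). *YUC10* and *MINI3* passed the filter only through their WT means, so their place in the count is not independent of their difference either. The log2 ratio of *FWA* was -1.008, with an interval (-1.115 to -0.901) that holds the 2-fold threshold.

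The ratio of *ESF1.2* (-2.71) was lower than the median of these 7 markers and close to that of all 9 (-2.74). *MEA* (-2.74), *YUC10* (-2.84) and *MINI3* (-4.32) lay below *ESF1.2*, and *PHE1*, *AGL36*, *FWA* and *FIS2* lay above it. The counting intervals of *MEA* (-2.988 to -2.502) and *YUC10* (-3.716 to -2.048) overlapped that of *ESF1.2* (-3.006 to -2.429). That of *MINI3* (-4.955 to -3.743) did not. The ratio of *ESF1.3* (2.64) lay above all 9. *FIS2*, a Polycomb gene of the central cell named after its value was seen, was the marker that was higher, with 143 in *agl62* and 83.9 in WT. The part of these markers in the levels of the ESF1 genes was not tested. Egg cell markers are given for the genes of the zygote. Of 5 *EC1* genes, 3 passed the filter and 1 was at least 2-fold higher in *agl62*, beside 2.64% of all genes. This was *EC1.1*, which encodes a peptide secreted by the egg cell at fertilization. It had 26.8 in *agl62* and 6.99 in WT (log2 ratio of 1.94, 1.17 to 2.80). *EC1.1* passed the filter only through its *agl62* mean, so its place in the count is not independent of its difference. Its average lies between 10 and 20, where 32.0% of the 952 genes were past 2-fold in either direction. The most abundant of the 5, *EC1.4*, had 175 in *agl62* and 169 in WT. The 5 means summed to 230.8 in *agl62* and to 190.0 in WT. Their part in the levels of *RKD4*, *WRKY2* or the *WOX* genes was not tested.

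Seed coat and green tissue markers describe the rest of the sample. The 7 seed coat genes had a median log2 ratio of -0.05 and summed to 141300 in *agl62* and 140400 in WT, led by *BAN*, a tannin synthesis gene, with 97300 in *agl62* and 96900 in WT. The 5 green tissue genes had a median of 0.48 and summed to 79250 in *agl62* and 54110 in WT, led by the Rubisco gene *RBCS1A*, with 37100 in *agl62* and 23500 in WT. *WRKY2*, with a log2 ratio of 0.46, was higher by about as much as these green tissue genes, and their part in its level was not tested.

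**Figure D4:**
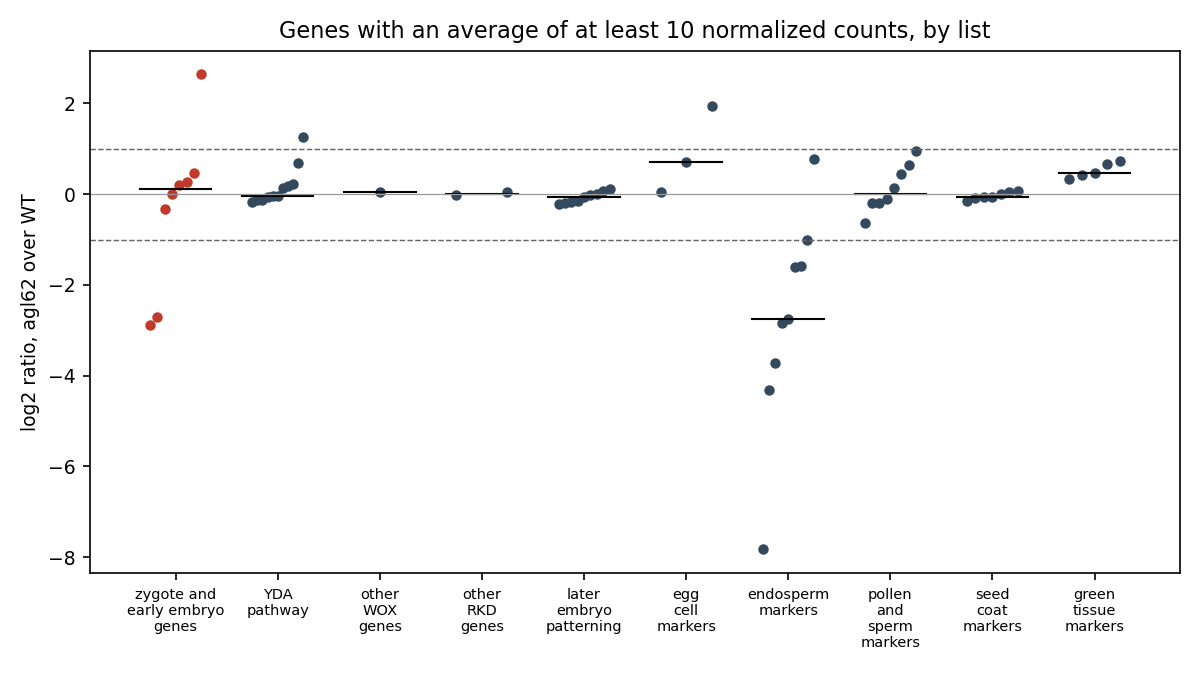
Log2 ratio of *agl62* over WT for each gene with an average of at least 10 normalized counts, by list, with a black bar at the list's median and dashed lines at 2-fold. The zygote and early embryo genes (red) spread from -2.89 to 2.64, the *YDA* pathway, other *WOX*, other *RKD* and later embryo patterning genes lie inside 2-fold except *HDG11* (1.25), and 8 of 9 endosperm markers, *AGL62* and *PGP10* among them, lie below -1.

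The letters upstream of the genes were searched for 3 motifs on both strands: the CArG box bound by MADS-box factors, the W-box core TTGAC bound by WRKY factors, and the auxin response element TGTCTC. The windows were the 250 bases before the annotated start, from RefSeq build TAIR10.1. The windows of the 3 genes past 2-fold are shown 5′ to 3′ on the strand of the gene, with matches in capitals: GTCAA and GAGACA are the same motifs read on the other strand. That of *SSP* is chr2:7437315-7437564, minus strand, that of *ESF1.2* chr1:3572424-3572673, plus strand, and that of *ESF1.3* chr1:3561930-3562179, plus strand.
SSP: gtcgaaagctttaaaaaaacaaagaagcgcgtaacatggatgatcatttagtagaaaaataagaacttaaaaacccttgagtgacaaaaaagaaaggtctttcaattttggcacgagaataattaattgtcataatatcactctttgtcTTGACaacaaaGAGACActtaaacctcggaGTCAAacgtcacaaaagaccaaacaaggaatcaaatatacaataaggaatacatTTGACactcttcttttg
ESF1.2: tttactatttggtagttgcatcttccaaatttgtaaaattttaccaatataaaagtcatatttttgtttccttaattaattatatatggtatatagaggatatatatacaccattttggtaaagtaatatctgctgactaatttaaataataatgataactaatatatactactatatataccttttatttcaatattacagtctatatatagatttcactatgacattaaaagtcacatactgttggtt
ESF1.3: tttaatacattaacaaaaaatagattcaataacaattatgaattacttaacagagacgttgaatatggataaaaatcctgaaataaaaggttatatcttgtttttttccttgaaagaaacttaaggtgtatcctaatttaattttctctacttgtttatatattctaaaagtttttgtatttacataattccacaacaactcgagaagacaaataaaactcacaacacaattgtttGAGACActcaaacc

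*SSP* held TTGAC at 101, 71 and 17 bases before its start and TGTCTC at 90. *ESF1.2* held none of the 3 motifs. *ESF1.3* held TGTCTC 14 bases before its start, and so did *ESF1.1*, both on the other strand. For *ESF1.3* and *ESF1.1* the annotated start is the start codon. Of the other genes, *WOX8* held TGTCTC at 199 and *RKD4* held TTGAC at 224 and 218. No CArG box was found in the 10 windows. Over the 27443 windows of protein-coding genes, 2.52% held a CArG box, 44.9% TTGAC and 10.9% TGTCTC. These matches describe the letters only, and the RNA values do not show whether a factor is bound there.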

How the data were processed

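RNA of whole seeds was sequenced as 100-base paired-end reads, with 3 libraries per genotype, grouped by the genotype in the labels. TopHat was used by the authors for the alignment to TAIR10, only reads with a unique position were retained, and DESeq was used for the comparison. Versions, counting tool, annotation, strand setting and the unit of a count (read or pair) are not given in the sources used here. Each deposited signal column holds the authors' mean over the libraries of a genotype, after division of the counts by size factors. The table also has 4 columns with the authors' fold change, its log2, p-value and adjusted p-value, which were not used.

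The log2 ratio divided the mean of *agl62* by that of WT, with no pseudocount. The value of 1 count per library was read from the means under 1, all 1737 of which in *agl62* and all 1522 in WT were whole-number sums of 3 steps to within 0.0041. Exact Poisson intervals followed from an average value of 0.287 in *agl62* and 0.433 in WT for 1 count, and cover counting error only. A gene was called past 2-fold when the ratio was at least 2 and the 2 means averaged at least 10. As the filter uses the same 2 means as the ratio, a low gene can pass through its higher mean only. The level ranges of 10 to 20 and of 100 to 200, and the 6-fold limit, were chosen after seeing the data. Lengths, coordinates, neighbours and sequences came from RefSeq TAIR10.1 by locus identifier, which matched 31912 of 32678 genes. A promoter or protein table was not used here, and copies were searched with blastn 2.17.0. The other tools were scipy 1.17.1, Biopython 1.88, matplotlib 3.10.9, pandas 2.3.3 and numpy 2.4.6 in Python 3.11.15.

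The members and lists were chosen with earlier results of these data known. Named were all 10 members, the genes of the other lists with an average of at least 10 and a ratio of at least 2, the most abundant gene of each marker list, genes that overlap a member, and genes within 20 kb of an ESF1 gene with a ratio of at least 2. Alternatives were pseudocounts of 1 and 10, equal totals, median centring, other filters (none, or an average of at least 50), folds of 1.5 and 4, and coding length.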

Additional observations from a re-analysis of the deposited data

How the results depend on the processing

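No paired analysis was possible because each genotype is given as 1 mean, so neither the replicate block nor the fits without each replicate were run. With a pseudocount of 10, the log2 ratio of *SSP* was -1.42, that of *ESF1.2* -2.42 and that of *ESF1.3* 1.23, outside their counting intervals, as a pseudocount pulls low genes towards 0. With equal totals the log2 ratio of *YDA* was 0.057, outside its narrow interval, as all ratios shift by 0.05. The other 32 of 36 ratios of the 9 genes stayed inside their intervals under pseudocounts, equal totals and median centring, and 0 of the genes past 2-fold turned round. The count of genes past 2-fold stayed at 3, except that an average of at least 50 left 1 (*ESF1.2*). For the 4 pathway lists the count of 1 became 4 with no filter, 0 with an average of at least 50, 2 at a fold of 1.5 and 0 at a fold of 4, since no filter admits low genes, *HDG11* falls below an average of 50 and a 4-fold difference, and *MPK3* passes 1.5-fold. Coding length left the number of genes above the median gene at 1 in *agl62* and 2 in WT. Depth limits *SSP*, *ESF1.3*, *RKD4* and *ESF1.1*, and each WT mean gives the shallow library the same weight as the others.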

Other observations

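The ESF1 genes belong to the annotated MEG family of small cysteine-rich peptides, a list taken from the annotation after the values were seen. Of the 10 other annotated members, 8 were in the table and 4 of these had reads, with means that summed to 21.7 in *agl62* and to 38.9 in WT. The 1 that passed the filter, AT4G15953, had 19.7 in *agl62* and 28.8 in WT, a log2 ratio of -0.55 (-1.06 to -0.04). AT2G16225 was under the filter, with 1.42 in *agl62* and 9.41 in WT, a log2 ratio of -2.73 (-4.50 to -1.28). AT2G41415 had 0.57 in *agl62* and 0.326 in WT, and AT2G16505 was listed at 0 in *agl62* and at 0.326 in WT, levels that 1 or 2 counts can make. Of the 3 family members past the filter, *ESF1.3* was the 1 that was higher in *agl62*. It passed the filter only through its *agl62* mean (21.7, against 3.49 in WT), so this is not independent of its difference.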
